A study of Mus musculus with 4 samples.

Results

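The genes described here encode the proteins of the mitochondrial ribosome, and they were measured in livers of wild-type (WT) mice and of mice with a knockout of Fto (KO), an RNA demethylase. Members were all protein-coding genes of the deposited tables whose symbol begins with Mrpl or Mrps followed by a number, which gave 77 genes of 37315 in all, 48 named for the large subunit and 29 for the small subunit. Mrpl33, which the annotation lists under an identifier that matched no row, was not analysed here. Members were picked by symbol and not by their values, though with earlier results of these data known. The series holds 4 RNA-seq libraries, 2 of each genotype, from C57BL/6 mice of 23 weeks. The labels do not say which exons or tissues the Fto allele affects, what sex the animals were or whether each library is a separate animal, so the p-values rest on how far these 4 libraries differ, which could be technical. Both genotypes share the strain, age and tissue, and no treatment is named.

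Mitochondria carry their own ribosomes, which translate the mRNAs of mitochondrial DNA into core subunits of the respiratory chain and ATP synthase. The ribosomal RNAs are transcribed in the organelle, whereas every ribosomal protein is encoded in the nucleus, made in the cytosol and imported. Some of these proteins have counterparts in bacterial ribosomes and others are found only in mitochondria. Liver is rich in mitochondria and depends on them for fatty acid oxidation, ketone production and the urea cycle.

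No mitochondrial ribosomal protein gene passed the test between Fto KO and WT liver. Of 76 members with enough reads to test, 0 passed an adjusted p under 0.05 in edgeR's quasi-likelihood test, against 1.91% of all 13836 genes tested (264 genes, 0.947% lower and 0.961% higher), and DESeq2 and limma-voom also called 0. At an unadjusted p under 0.05 each of these tools had 1 member, Mrps10, against 13.0% of all genes in edgeR (6.48% lower). The fitted differences were small: log2 fold changes ran from -0.53 to 0.21 with a median standard error (SE) of 0.20. For all 76 tested members the 95% interval of the log2 fold change lay between -0.97 and 0.73, inside a 2-fold change in either direction. A miss of the threshold does not show equal levels. Each interval was computed for a single gene, with no adjustment for the number of members. The intervals rest on the spread between 2 libraries per genotype, which could be technical. They therefore do not exclude a larger genotype difference in some members. Most estimates were slightly negative. The fit placed 59 members lower and 17 higher in KO, with a median of -0.08, whereas over all tested genes 49.2% were lower and the median was 0.01. The median moved with the library left out. Without WT replicate 2 it was 0.07 with 24 members lower, and without KO replicate 1 it was 0.01 with 36 lower. It was -0.23 without WT replicate 1 and -0.20 without KO replicate 2, each with 73 lower. Most members were higher in the libraries numbered 2, so leaving out 1 library by itself moves KO against WT. These fits therefore cannot show whether the lean rested on a single library. Within numbers 1 and 2, read apart below, the medians were -0.03 and -0.14.

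**Figure D1:**
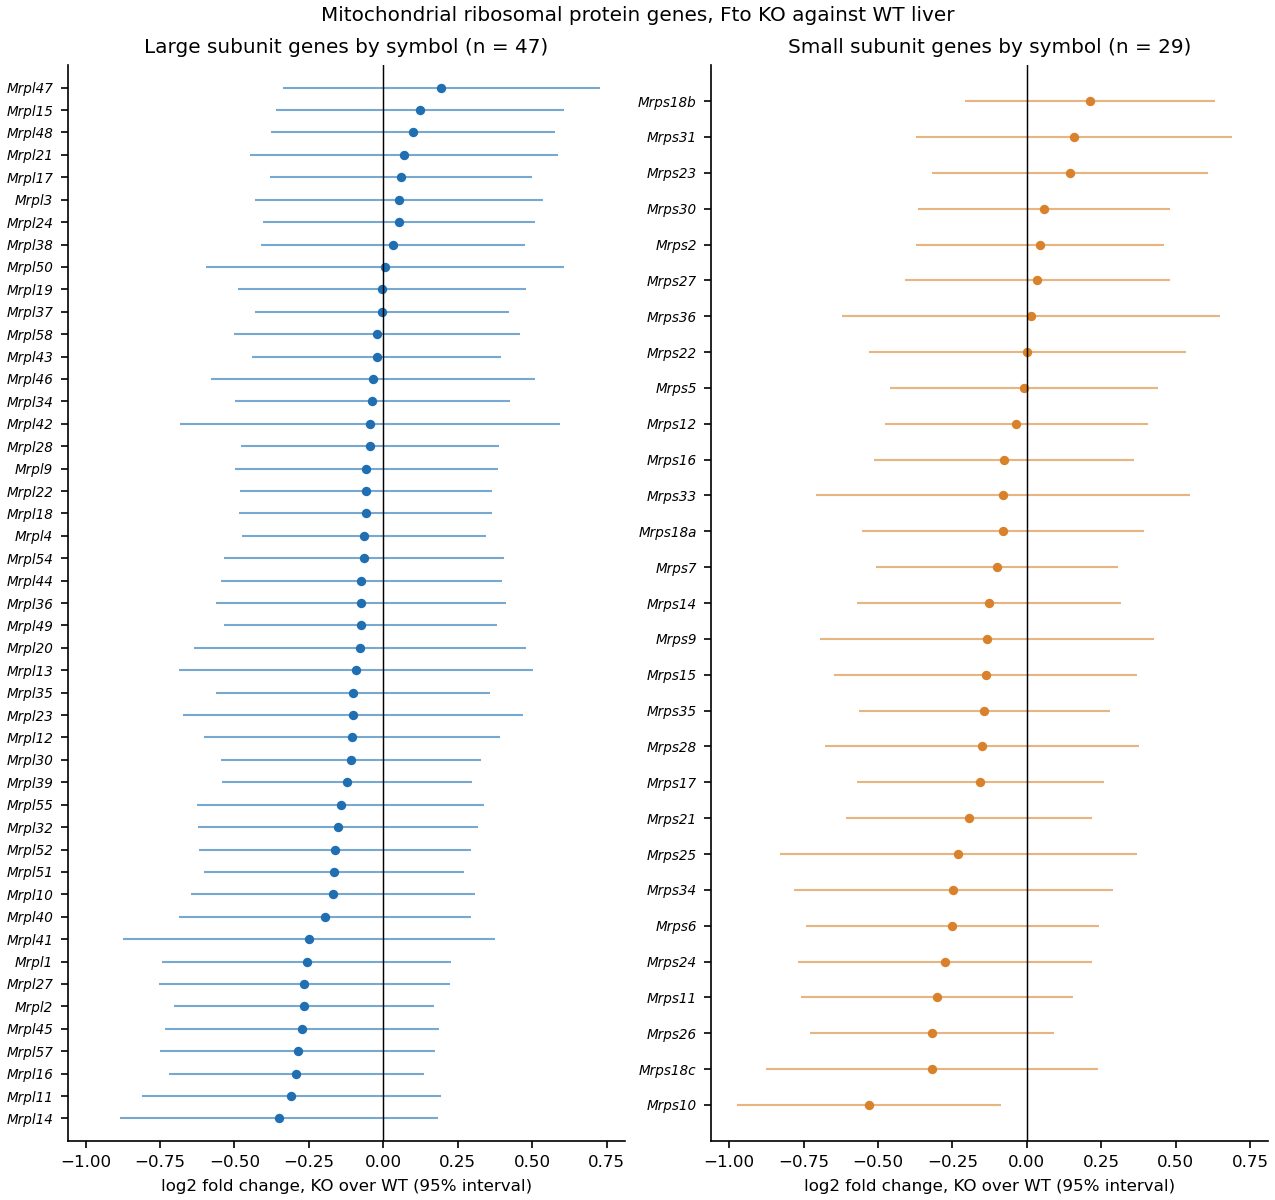
Log2 fold change of KO over WT (x axis) for each tested member (y axis), large subunit genes on the left (n = 47) and small subunit genes on the right (n = 29); points are fitted values and lines are 95% intervals. Every interval except that of Mrps10 includes 0, and all lie between -0.97 and 0.73.

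Total counts were between 39549592 and 44689114 per library, and the tested members had between 197 and 6391 reads in a library. Counting error was not set apart from the spread between libraries for single members. Levels are given as CPM, each gene's count scaled to library size with edgeR's TMM factors. Counts of Fto, the targeted gene, were 1749 and 1292 in the WT libraries as opposed to 607 and 486 in the KO libraries (log2 fold change -1.57, SE 0.195, edgeR adjusted p = 0.0109). The 8 hepatocyte markers, albumin and apolipoprotein genes among them, summed to between 87854 and 94603 CPM in WT and between 97116 and 102447 CPM in KO. All 12 Kupffer cell markers were higher in the KO fit and 2 were called, with sums of 164 and 248 CPM in WT and 357 and 384 CPM in KO. The 6 erythroid markers summed to 270 and 305 CPM in WT and 186 and 206 CPM in KO, and the 5 adipocyte markers to at most 10.2 CPM in any library. No marker was at 0 in all 4 libraries. The part of other cell types in the members' values was not tested, and in whole tissue fewer cells of a type and less RNA per cell cannot be told apart.

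For the members, the libraries numbered 2 differed from those numbered 1 by more, in the median, than KO differed from WT. Summed over all 77 members, WT libraries 1 and 2 held 2195 and 2743 CPM and KO libraries 1 and 2 held 2150 and 2468 CPM. The genotypes therefore overlapped, and in each of them the library numbered 2 was the higher one. In WT 74 of 76 tested members were higher in library 2 than in library 1, against 52.3% of all tested genes, with a median log2 ratio of 0.30. In KO 68 of 76 were, against 49.1% of all genes, with a median of 0.18. The exceptions in both genotypes were the small subunit genes Mrps21 and Mrps35; in KO they also included Mrps26, Mrps6, Mrps18b, Mrpl55, Mrpl4 and Mrpl28.

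KO over WT was then read within each number, where there is 1 library of each genotype and no test. Within number 1 the median log2 ratio of the members was -0.03, with 43 of 76 lower in KO. Within number 2 it was -0.14, with 62 lower. Over all tested genes these medians were 0.02 and 0.00. Members lower within both numbers came to 38, against 33.7% of all tested genes, those higher within both to 9, against 36.0%, and the remaining 29 had opposite signs. The 9 higher within both were Mrps18b, Mrpl47, Mrps23, Mrps31, Mrpl15, Mrpl48, Mrps30, Mrpl24 and Mrps2.

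**Figure D2:**
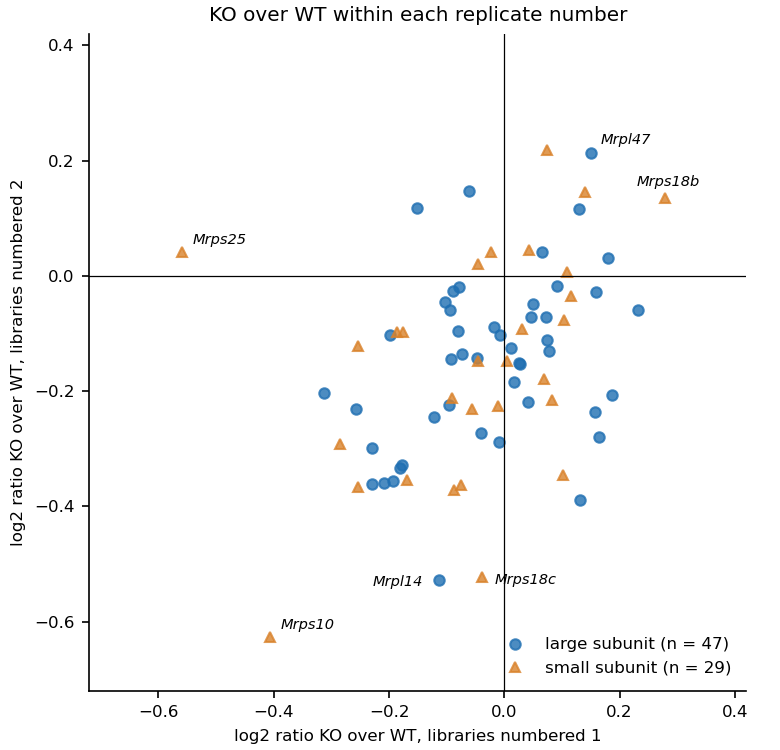
Log2 ratio of KO over WT for each tested member among the libraries numbered 1 (x axis) and numbered 2 (y axis); circles are large subunit genes (n = 47) and triangles small subunit genes (n = 29). Most points lie below 0 on the y axis (62 of 76) and spread to both sides of 0 on the x axis (43 lower), with Mrps10 at the lower left at -0.41 and -0.63.

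Groups that did not overlap, with both KO libraries below both WT libraries, were found for 11 members, against 20.4% of all tested genes. They were the small subunit genes Mrps10, Mrps26, Mrps11, Mrps6, Mrps21, Mrps17 and Mrps35 and the large subunit genes Mrpl16, Mrpl57, Mrpl2 and Mrpl45. The reverse, both KO libraries above both WT libraries, held for 1 member, Mrps18b, against 21.6% of all genes. Both counts are below the share over all genes.

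Large and small subunit genes had similar medians, a difference that was not tested. The median log2 fold change was -0.08 over 47 large subunit genes, of which 38 were lower in the fit, and -0.13 over 29 small subunit genes, of which 21 were lower. Within number 1 the medians were -0.02 and -0.04, and within number 2 they were -0.14 and -0.15. Summed large subunit levels were 1485 and 1889 CPM in WT and 1467 and 1700 CPM in KO. Summed small subunit levels were 710 and 854 CPM in WT and 683 and 768 CPM in KO. In both subunits the genotypes overlapped and library 2 was the higher. Symbols do not always name the subunit: in structures of the mammalian mitochondrial ribosome the products of Mrps30 and Mrps18a sit in the large subunit, and that of Mrps36 is now known as a component of the 2-oxoglutarate dehydrogenase complex. Assigned by structure, the medians were -0.08 over 49 large and -0.14 over 26 small subunit genes. Members with a bacterial counterpart had a median of -0.10 (45 genes, 38 lower) and those specific to mitochondria one of -0.07 (30 genes, 21 lower).

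Among small subunit genes, Mrps10 had the largest difference of all members. It encodes a protein of the subunit's head with a bacterial counterpart and lies on chromosome 17 (47368887 to 47381417, plus strand, mm10). Its level was 38.4 and 47.6 CPM in WT libraries 1 and 2 and 28.8 and 30.6 CPM in KO libraries 1 and 2. Both KO libraries were below both WT libraries. The log2 fold change was -0.53 (SE 0.191, 95% interval -0.97 to -0.09), with an unadjusted p of 0.0249 and an adjusted p of 0.282 in the edgeR fit over all genes. Mrps26, a protein specific to mitochondria, was at 24.5 and 26.1 CPM in WT and at 20.4 and 20.1 CPM in KO (log2 fold change -0.32, SE 0.176, edgeR adjusted p = 0.524). The difference of Mrps26 was similar within number 1 (-0.25) and number 2 (-0.37).

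Mrps11 encodes a protein of the platform of the small subunit. It was at 11.8 and 13.5 CPM in WT and at 9.60 and 10.9 CPM in KO, a log2 fold change of -0.30 with SE 0.196. Mrps11 shares 413 bases of chromosome 7 with Mrpl46, a member that starts on the opposite strand, and 7.97% of its exonic bases are also exonic in Mrpl46. The kit does not mark strand, so reads from the shared bases cannot be assigned by strand. Mrpl46 was at 12.7 and 19.0 CPM in WT and at 14.6 and 16.4 CPM in KO (log2 fold change -0.04), with groups that overlapped.

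Mrps18a, Mrps18b and Mrps18c encode related proteins that occupy different places in the mitochondrial ribosome. Mrps18b had the most positive estimate of all members, with 13.2 and 14.3 CPM in WT and 16.1 and 15.8 CPM in KO (log2 fold change 0.21, SE 0.181, edgeR adjusted p = 0.714). Mrps18c leaned the other way, with 19.1 and 29.6 CPM in WT and 18.6 and 20.4 CPM in KO (log2 fold change -0.32, SE 0.240). WT library 2 of Mrps18c stood above the other 3 libraries, which lay close together, and without it the log2 fold change was 0.02. Mrps18a was at 29.2 and 38.9 CPM in WT and at 31.0 and 33.4 CPM in KO (log2 fold change -0.08), with overlapping groups. Of the exonic bases of Mrps18b 30.5% are also exonic in Gm16279, and of those of Mrps18c 23.2% are in Gm43511. The effect of these shared bases on the counts was not tested.

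The other small subunit genes with the smaller p-values were Mrps24, Mrps6 and Mrps21, which have bacterial counterparts. Their log2 fold changes were -0.28, -0.25 and -0.19, with edgeR adjusted p from 0.679 to 0.742. Mrps6 was at 7.50 and 9.04 CPM in WT and at 7.03 and 6.87 CPM in KO. Mrps21 was at 29.1 and 26.3 CPM in WT and at 24.3 and 24.1 CPM in KO, and so was one of the members in which library 1 was the higher of WT. Mrps25 had the most unequal KO libraries of this group, with 12.2 and 12.9 CPM in WT and 8.13 and 13.3 CPM in KO, and its ratio changed sign between number 1 (-0.56) and number 2 (0.04). Mrps31, with 26.4 and 33.3 CPM in WT and 27.8 and 38.9 CPM in KO, was among the higher ones (log2 fold change 0.16), but the groups overlapped and the value was -0.11 without KO replicate 2.

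**Figure D3:**
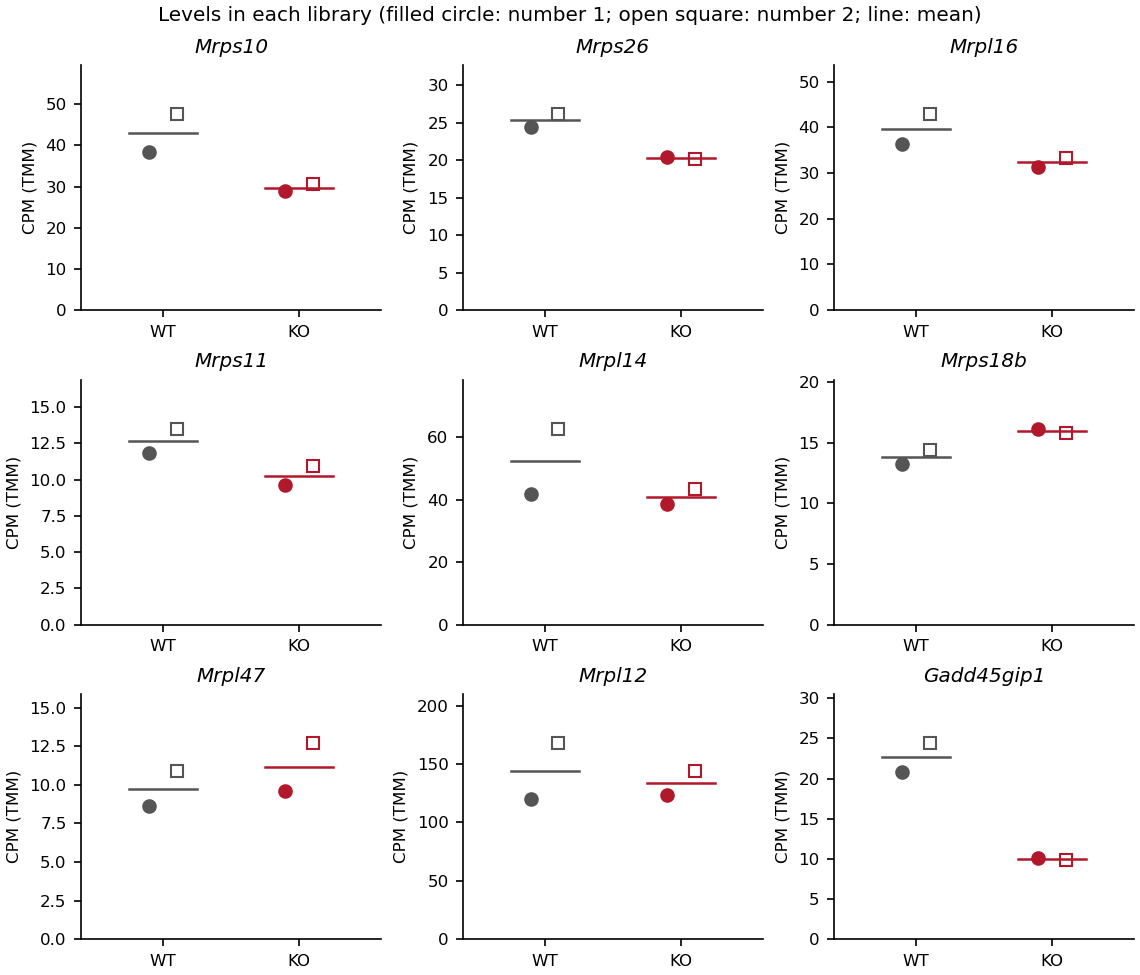
CPM after TMM scaling (y axis, from 0) in each library for 8 members and for Gadd45gip1; filled circles are libraries numbered 1, open squares libraries numbered 2 and lines the mean of 2. WT and KO are apart for Mrps10, Mrps26, Mrpl16, Mrps11, Mrps18b and Gadd45gip1, and overlap for Mrpl14, Mrpl47 and Mrpl12.

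Among large subunit genes, the smallest p-value was that of Mrpl16, whose product lies near the peptidyl transferase centre, where peptide bonds form. It was at 36.3 and 42.9 CPM in WT and at 31.4 and 33.3 CPM in KO (log2 fold change -0.29, SE 0.184, edgeR adjusted p = 0.592). Mrpl2, which encodes another protein of that core, was at 55.2 and 67.3 CPM in WT and at 48.6 and 53.3 CPM in KO (log2 fold change -0.27). The KO libraries of both genes were below the WT libraries. Mrpl27, whose bacterial counterpart reaches into the same centre, was at 29.1 and 38.4 CPM in WT and at 25.7 and 30.5 CPM in KO, with overlapping groups.

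Mrpl14, which encodes a protein at the interface with the small subunit, had the most negative large subunit estimate. Its level was 41.9 and 62.8 CPM in WT and 38.7 and 43.4 CPM in KO (log2 fold change -0.35, SE 0.230, edgeR adjusted p = 0.609). WT library 2 was well above the other 3, and without it the log2 fold change was -0.04. Mrpl11 and Mrpl1 encode proteins at the bases of the subunit's stalks. Mrpl11 was at 26.3 and 35.2 CPM in WT and at 22.4 and 27.3 CPM in KO, and Mrpl1 at 26.4 and 31.6 CPM in WT and at 21.2 and 27.4 CPM in KO, so both overlapped (log2 fold changes -0.31 and -0.26). Mrpl45, whose product holds the ribosome to the inner membrane, was at 32.0 and 39.4 CPM in WT and at 27.2 and 31.9 CPM in KO, and Mrpl57 at 22.6 and 28.4 CPM in WT and at 19.7 and 22.1 CPM in KO. In each of these last 2 genes the higher KO library was just below the lower WT library (log2 fold changes -0.27 and -0.29).

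Mrpl47, whose product lies at the exit of the peptide tunnel, had the most positive large subunit estimate. It was at 8.61 and 10.9 CPM in WT and at 9.60 and 12.7 CPM in KO (log2 fold change 0.19, SE 0.229, edgeR adjusted p = 0.813), with overlapping groups and a value of -0.03 without KO replicate 2. Mrpl12 encodes the stalk protein that recruits translation factors and is also known to bind the mitochondrial RNA polymerase. At 120.1 and 167.9 CPM in WT and 123.6 and 144.2 CPM in KO it had the most reads of all members, and its log2 fold change of -0.10 (SE 0.213) became 0.15 without WT replicate 2.

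Levels can be compared between genes only per length, here as mean CPM per kilobase of the longest annotated transcript. In WT liver Mrpl12 was highest at 109.4 ± 25.7 CPM per kilobase (SD, n = 2), followed by Mrpl14 at 81.1 ± 22.9 and Mrpl2 at 59.4 ± 8.28. The ranges of Mrpl12 and Mrpl14 over the WT libraries overlapped. The lowest tested members were Mrpl19 at 1.88 ± 0.260, Mrps25 at 2.07 ± 0.0827 and Mrpl47 at 2.90 ± 0.477 CPM per kilobase. The median over all tested members was 14.8, with quartiles of 8.07 and 27.3, against a median of 3.72 over tested protein-coding genes. Large subunit genes had a median of 17.2 and small subunit genes one of 10.5.

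This order depends on the transcript taken as the length. The annotated transcripts of a member can differ widely: of 36 members whose longest transcript had at least 2000 bases, 18 had a median protein-coding transcript under 2000 bases. With the median protein-coding transcript, Mrpl12 stayed first at 109.4 CPM per kilobase and Mrpl52 came second at 108.8, up from sixth, while Mrpl17 moved from position 65 to 9. The lowest 3 tested members were the same with either length. Exons shared with another gene also touch these levels: 69.8% of the exonic bases of Mrps25 are also exonic in Nr2c2, 36.0% of those of Mrpl19 in Gcfc2 and 24.2% of those of Mrpl47 in Actl6a or Ndufb5. The effect of the shared bases on the counts was not tested.

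**Figure D4:**
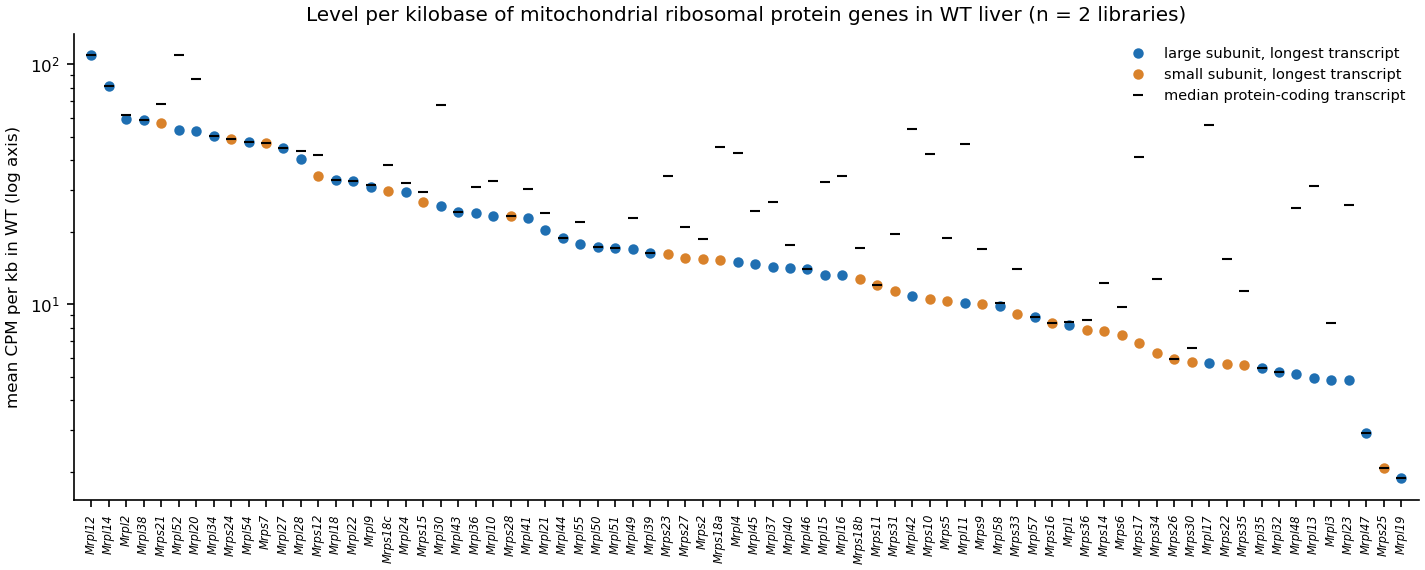
Mean CPM per kilobase in WT (y axis, log scale) for each of the 76 tested members, ordered from high to low by the longest annotated transcript; circles use that length, coloured by subunit, and dashes use the median protein-coding transcript. Circles run from 109.4 for Mrpl12 to 1.88 for Mrpl19, and dashes lie far above the circle for members such as Mrpl17.

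Mrpl53 could not be tested. Its deposited count was 1 in WT library 2 and 0 in the other libraries, although the other members each had at least 197 reads in every library. The gene spans 83109040 to 83109939 on chromosome 6 (plus strand, mm10), and 88.0% of its exonic bases are also exonic in Gm42688, a longer gene model on the same strand, or in the antisense gene Ccdc142os. Gm42688 was counted 157 and 118 times in WT, as opposed to 199 and 152 times in KO, with a log2 fold change of 0.25 (edgeR adjusted p = 0.766). How reads over both models were counted is not given in the sources used here, so the deposited count of Mrpl53 gives no level for this gene. Pseudogenes that carry a member's name held few reads: Mrpl23-ps1 had between 3 and 9 per library, Mrpl48-ps at most 1, and both pseudogenes of Mrps36 had 0.

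The replicate difference varied with transcript length over the whole table. The median longest transcript was 1866.5 bases over tested members and 3384 bases over tested protein-coding genes. The part of length in the members' replicate difference was not tested. Among tested protein-coding genes, the median log2 ratio of library 2 over library 1 in WT went from 0.33 for longest transcripts under 1000 bases to -0.44 at 8000 bases or more; in KO it went from 0.17 to -0.39. The 16 members in the shortest class had medians of 0.40 in WT and 0.15 in KO, close to those of other genes of that length. The 11 members in the class from 4000 to under 8000 bases had 0.27 in WT and 0.17 in KO, where protein-coding genes had -0.15 and -0.14. Classed by the median protein-coding transcript, a choice made after seeing the data, the 34 members under 1000 bases had 0.39 in WT and 0.18 in KO, against 0.19 and 0.10 for protein-coding genes. For KO over WT, the medians of protein-coding genes went up with length from -0.11 to 0.11, while those of the members were -0.15, -0.07, -0.08 and -0.09 from the shortest class to that ending below 8000 bases. By longest transcript, the members' medians were thus near those of protein-coding genes in the shorter pair of classes and below them in the longer pair. In the shortest class, though, 15 of 16 members were lower in the fit, against 319 of 503 protein-coding genes. Classed by the median protein-coding transcript, the 34 members under 1000 bases had a median of -0.10, against -0.04 for protein-coding genes. In the next class it was -0.07 against -0.02. By that length the members' median was below that of protein-coding genes in every class that held members. With an offset for transcript length in each library, the members' median was -0.05 with 49 of 76 lower, and 0 were called.

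**Figure D5:**
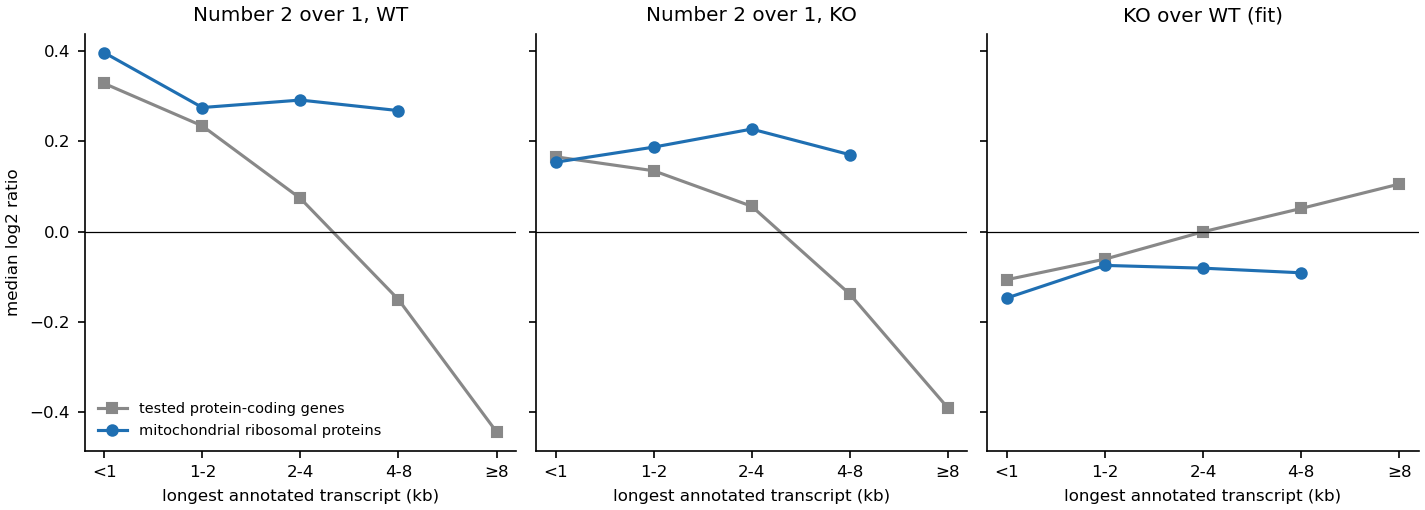
Median log2 ratio (y axis) by class of the longest annotated transcript in kilobases (x axis), for library 2 over library 1 in WT, the same in KO, and fitted KO over WT; grey squares are tested protein-coding genes and blue circles tested members. Grey medians go down with length in the first 2 panels (0.33 to -0.44 in WT) and go up in the third (-0.11 to 0.11), while the members keep one sign in each panel.

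A few proteins of the mitochondrial ribosome have symbols of other kinds, and 1 of the 5 listed changed. Gadd45gip1, also known as CRIF1, encodes a large subunit protein near the tunnel exit that is needed for making and inserting respiratory chain subunits. It was at 20.9 and 24.4 CPM in WT and at 10.1 and 9.82 CPM in KO, and the KO libraries lay far below those of WT. Its log2 fold change was -1.18 (SE 0.190, edgeR adjusted p = 0.0255), and it passed in all 12 other settings tried (adjusted p from 2.58e-07 to 0.0451). The gene lies on chromosome 8 (84831522 to 84835482, mm10), the chromosome of Fto, and its difference exceeds that of every tested Mrpl or Mrps gene. The members Mrpl34 and Mrps31 also lie on that chromosome, with log2 fold changes of -0.04 and 0.16. Any part of the chromosome in these values was not tested.

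The other proteins of this kind did not pass. Dap3, a GTP-binding protein of the small subunit, was at 36.3 and 38.9 CPM in WT and at 32.7 and 31.1 CPM in KO (log2 fold change -0.24, edgeR adjusted p = 0.662). Aurkaip1 was at 56.6 and 79.9 CPM in WT and at 52.7 and 61.5 CPM in KO (-0.26). Ptcd3, an RNA-binding protein where mRNA enters the small subunit, had a log2 fold change of -0.12 and Chchd1 one of 0.05.

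Genes that assemble, supply and control the mitochondrial ribosome were read beside the members. Of 26 tested genes of assembly and rRNA maturation 0 were called (12 lower in the fit, median log2 fold change 0.02); the smallest p-values were those of the rRNA methyltransferase gene Mettl15 (-0.98, edgeR adjusted p = 0.395; called without WT replicate 1 and without KO replicate 2) and the pseudouridine synthase gene Rpusd3 (-0.40, 0.440). Of 16 translation factor genes 0 were called (11 lower, median -0.13), with Rmnd1 at -0.48 (adjusted p = 0.314) and the deformylase gene Pdf at -0.91 (0.691). Pdf had few reads, 21 and 8 in WT and 5 and 11 in KO, with overlapping groups and an SE of 0.719. Of 20 genes charging mitochondrial tRNAs 0 were called (16 lower, median -0.08), with Qrsl1 and Gatb, which encode parts of a glutamine amidotransferase, at -0.48 and -0.40. At an unadjusted edgeR p under 0.05 these lists held 0, 1 and 0 genes, the 1 being Rmnd1, against 13.0% of all tested genes. DESeq2 and limma-voom called 0 in each list.

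Mitochondrial transcription and RNA handling had 18 tested genes and 0 called by edgeR or limma-voom (8 lower, median 0.02). In edgeR 2 had an unadjusted p under 0.05, Hsd17b10 and Lrpprc, against 13.0% of all tested genes. DESeq2 called 1, Hsd17b10. Hsd17b10, a subunit of the enzyme that cuts tRNAs from mitochondrial transcripts, was at 222.8 and 313.8 CPM in WT and at 129.0 and 159.8 CPM in KO. Its groups did not overlap, and its log2 fold change of -0.89 (SE 0.223, edgeR adjusted p = 0.112) passed in 7 of 12 other settings. Lrpprc, which stabilises mitochondrial mRNAs, was at 119.0 and 102.9 CPM in WT and at 160.5 and 142.6 CPM in KO (0.45, edgeR adjusted p = 0.342). In this list 4 genes were lower and 4 higher in KO without overlap, against 20.4% and 21.6% of all tested genes.

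Of 12 regulators of mitochondrial gene expression 11 were higher in the fit (median 0.26), against 7027 of all 13836 tested genes. The tools edgeR, DESeq2 and limma-voom called 0. Unadjusted edgeR p-values were under 0.05 for 2, Nrf1 and Ppargc1a, against 13.0% of all tested genes. Nrf1, a transcription factor for many nuclear genes of mitochondria, was at 8.25 and 7.36 CPM in WT and at 11.5 and 12.8 CPM in KO (log2 fold change 0.64, edgeR adjusted p = 0.201). Ppargc1a, a coactivator of mitochondrial biogenesis, was at 8.30 and 9.54 CPM in WT and at 4.97 and 6.05 CPM in KO (-0.69, adjusted p = 0.219). Neither gene's groups overlapped, and their estimates had opposite signs. Of the 12 regulators 1 was lower and 4 were higher in KO without overlap, against 20.4% and 21.6% of all tested genes. The regulators had a median longest transcript of 5116.5 bases. Tested protein-coding genes from 4000 to under 8000 bases had a median log2 fold change of 0.05. The part of length in the regulators' values was not tested.

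The 13 mRNAs encoded by mitochondrial DNA, the templates of these ribosomes, had 0 calls in edgeR and with both other tools, and their unadjusted edgeR p-values were all above 0.05. They made up 6.61% and 7.28% of the counts of WT libraries 1 and 2 and 5.25% and 7.19% of those of KO. Within number 1 all 13 were lower in KO (median log2 ratio -0.39), and within number 2 there were 6 lower (median 0.05). The smallest p-values were those of mt-Cytb (log2 fold change -0.32, edgeR adjusted p = 0.596) and mt-Nd4 (-0.29, 0.628). The mitochondrial rRNAs mt-Rnr1 and mt-Rnr2 were read from libraries selected for poly(A) and had log2 fold changes of 0.01 (SE 0.292) and -0.08 (SE 0.556). For mt-Rnr2 levels were 4266 and 1297 CPM in WT libraries 1 and 2 and 3555 and 1701 CPM in KO libraries 1 and 2. Both rRNAs were higher in library 1 than in library 2 of each genotype, unlike most members.

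Proteins of the cytosolic ribosome leaned the opposite way. Of 76 tested cytosolic ribosomal protein genes 75 had a positive log2 fold change, 0 were called by edgeR, DESeq2 or limma-voom, none had an unadjusted p under 0.05 in edgeR, and the median was 0.21. Within number 1 their median log2 ratio was 0.30 with 1 lower, and within number 2 it was 0.16 with 6 lower. Like the members they are short and were higher in library 2 than in library 1, with medians of 0.35 in WT and 0.20 in KO. The difference between both families was not tested.

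The promoters of the members held motifs known from nuclear genes of mitochondria in a minority of cases. RefSeq windows of the same assembly (GRCm38.p6), from 250 bases before to 50 after a gene's start, were found for 68 of 77 members, 67 of them tested. Both strands were searched for the palindromic consensus of NRF1, for CCGGAAGT, a site of ETS factors such as GABP, and for the consensus of YY1; the letters of NRF1 and YY1 stand in capitals in the sequences printed here. Of these 67 members 3 held the NRF1 letters (4.48%), against 2.29% of 10088 tested protein-coding genes with a window, 11 held the ETS letters (16.4% against 8.83%) and 7 the YY1 letters (10.4% against 2.68%). At least 1 of the 3 was found in 19 members (28.4%) and in 13.2% of all these genes, and no match overlapped another in a member's window. The median log2 fold change was -0.08 for the 7 members with the YY1 letters and -0.09 for the 60 without them, and it was -0.06 for the 11 with the ETS letters and -0.09 for the 56 without them. For the NRF1 letters it was -0.12 for the 3 members with them and -0.08 for the 64 without them. A match is a string of letters and not a measured site, and its absence says nothing of the factor.

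The NRF1 matches were all in large subunit genes and lay before the start. They are shown as 30 bases on the gene's strand, 5′ to 3′, with the match in capitals, to show how unlike the flanks are around the same letters. Positions are chr13:14613105-14613134 for Mrpl32 (minus strand), chr16:84735350-84735379 for Mrpl39 (minus strand) and chr3:94443298-94443327 for Mrpl9 (plus strand).
Mrpl32: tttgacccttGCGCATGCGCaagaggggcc
Mrpl39: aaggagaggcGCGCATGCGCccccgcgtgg
Mrpl9: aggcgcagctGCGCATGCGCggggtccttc

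Of the 7 YY1 matches 6 lay within 37 bases after the start and on the gene's own strand, and that of Mrps11 lay before the start on the opposite strand. The 7 are shown in the same way, because they are the motif with the widest gap between members and other genes. Positions are chr11:94653790-94653819 for Mrpl27 and chr17:46111006-46111035 for Mrps18a, chr13:99344791-99344820 for Mrps27 and chr7:78783012-78783041 for Mrps11 (plus strand), and chr6:71823741-71823770 for Mrpl35, chr4:107066820-107066849 for Mrpl37 and chr13:118387217-118387246 for Mrps30 (minus strand).
Mrpl27: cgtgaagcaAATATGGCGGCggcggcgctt
Mrpl35: gcaggctgcAAGATGGCGGCttccatcttc
Mrpl37: gcacgggcaAAGATGGCGGCgtccaggtag
Mrps18a: gtgcgttccAAGATGGCGGCcctcagggct
Mrps27: gtgcgctccAAGATGGCGGCtcccatggtg
Mrps30: cggcgggcgAAAATGGCGGCggccaggtat
Mrps11: cctacgggcGCCGCCATCTTtctgtcttcc
Of these genes Mrps18a and Mrps30 are large subunit genes by structure. Their log2 fold changes ran from -0.30 for Mrps11 to 0.06 for Mrps30, with none called.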

How the data were processed

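Per the submitters' processing notes, reads were handled with TopHat2 2.1.1 and HTSeq 0.6.0 on mm10; which annotation and options HTSeq used is not given in the sources used here. Per the labels' protocols, poly(A) RNA was made into TruSeq v2 libraries, which do not mark strand, and read in pairs of 101 bases. The deposited files hold raw counts per Ensembl gene. Symbols, positions and transcript lengths came from GENCODE M21 (same assembly), which matched 35449 of 37315 identifiers.

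From the deposited counts, KO was compared with WT in edgeR 4.0.16 (R 4.3.3): filterByExpr (minimum count 10, total 15), TMM, robust quasi-likelihood fit with genotype as the only term, two-sided, Benjamini-Hochberg adjustment over 13836 genes. SE is the log2 fold change over the square root of F, and intervals are 95%. Ratios of 2 libraries used log2(CPM + 0.5). The procedure was tested on simulated data, where recovery was required only for changes larger than any fitted for the members. The simulated libraries had no difference between replicate numbers.

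Every pair of libraries differed by more than sampling noise (chi-square per degree of freedom at least 86.5). Named genes were the 8 members of each subunit with the smallest p, the 3 largest differences each way, the highest and lowest 3 per kilobase, untested members, ribosomal proteins of other symbols, and the called members or else the smallest 2 p-values of each other list; further members were named after their values were seen. Members and lists were chosen with earlier results of these data known. Alternatives were other scalings and tests (DESeq2 1.42.0, limma 3.58.1), no filter, left-out libraries, a replicate block and a length offset.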

Additional observations from a re-analysis of the deposited data

How the results depend on the processing

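Members were called in the fits with a replicate block and in no other. With the replicate number as a block, 2729 genes were called (19.7% of those tested) and 2 members, Mrps10 (adjusted p = 7.36e-04) and Mrpl14 (0.0386); with the block and the length offset 2493 were called, and the 2 members were Mrps10 (0.00154) and Mrps26 (0.0400), without Mrpl14 (0.0900). Of the other named genes, besides Gadd45gip1 and Hsd17b10, Mettl15, Rmnd1, Gatb, Lrpprc, Nrf1 and Ppargc1a passed in both fits with the block, and Rpusd3, mt-Cytb and mt-Nd4 with the block alone. Deviations of same-numbered libraries correlated with r = 0.54 over genes, but the labels do not say that numbers pair animals. The count over all genes was 829 without a filter, 574 with DESeq2, 481 with the length offset and from 460 to 633 when 1 library was left out. Leaving out a library moved the median log2 fold change from -0.235 to 0.0656 for all members, from -0.229 to 0.0727 for large and from -0.240 to 0.0426 for small subunit genes.

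Signs turned for estimates near 0 and also for some further from it, such as that of Mrps18c (-0.32 in the main fit). Ranges without 1 library were -0.60 to 0.0220 for Mrps18c, -0.0269 to 0.38 for Mrpl47, -0.11 to 0.38 for Mrps31, -0.33 to 0.15 for Mrpl12, -0.14 to 0.14 for Mrpl19, -0.64 to 0.0860 for Mrps25, -0.25 to 0.30 for Chchd1, -0.48 to 0.00389 for Aurkaip1, -0.71 to 1.02 for mt-Rnr2 and -0.35 to 0.46 for mt-Rnr1. Mrpl19 was 0.0158 with library size alone, 0.00133 with limma-voom and 8.18e-04 with the replicate block. The rRNA mt-Rnr2 was 0.0637 with limma-voom, 0.0635 with the replicate block and 0.12 with block and length offset, and was called without WT replicate 1 (1.02, adjusted p = 0.0311). For mt-Rnr1 the value was -0.00678 with DESeq2 and with its size factors. The cause was not tested. Members lower within both numbers were 41 with DESeq2 size factors and 34 with library size alone; the remaining settings give no value for that count. In all, 428 of the settings' values for single genes kept sign and side of the threshold, 28 kept sign and newly passed it, and 24 changed sign, among them that of mt-Rnr2 that passed. Each tested member had at least 197 reads per library.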
